A study of Mus musculus with 84 samples.

Results

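Astrocytes surround the small vessels of the brain and spinal cord and send signals to them. The 7 genes described here encode such signals and their receptors: the growth factors Vegfa and Vegfb, the angiopoietin Angpt1, the peptide endothelin-1 (Edn1) with its receptors Ednrb and Ednra, and angiotensinogen (Agt). They were chosen by name, and all 7 passed the filter on low counts, among 23324 genes tested in the experimental autoimmune encephalomyelitis (EAE) experiment and 14957 tested in the subtype experiment.

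RNA was measured by 3′ end sequencing of sorted astrocytes in 84 libraries. The 66 EAE libraries came from adult female C57BL/6J mice. EAE is a mouse model of multiple sclerosis, and here the mice were immunized with a myelin oligodendrocyte glycoprotein peptide in complete Freund's adjuvant and given pertussis toxin. Controls (C) were not immunized, so that the disease is compared with no injection at all and the adjuvant and toxin cannot be told apart from the immune attack. The other groups were taken at score 1 with a limp tail (E1), at score 4 with paralysed hind legs (E4) and in the chronic stage (Ech). Cells were sorted as CD11B-negative, CD45-negative and positive for ACSA-2, a surface epitope of ATP1B2, and were then divided by the surface protein GLAST (SLC1A3) into GLASTneg and GLASTpos. Hindbrain GLASTneg and spinal cord GLASTneg libraries numbered 5, 6, 6 and 6 and 5, 5, 6 and 6 at C, E1, E4 and Ech, and hindbrain GLASTpos libraries numbered 5, 6, 6 and 4. The 18 subtype libraries were 3 each of forebrain GLASTneg, forebrain GLASTpos, hindbrain GLASTneg, hindbrain GLASTpos and spinal cord GLASTneg astrocytes of FVB/N mice, whose age the sources used here do not give, and 3 of cultured astrocytes from neonatal C57BL/6J cerebrum. Some libraries pooled more than 1 mouse. The titles of the EAE libraries carry a number that recurs across the sorted populations of a stage (9 of the 66 titles hold 2 such numbers) and whose meaning the labels do not state, so libraries of different populations may come from the same mouse, and p-values measure the spread between libraries.

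Total counts ran from 1313682 to 4895220 per EAE library and from 416768 to 1269316 per isolated FVB/N library, so that 3 counts equal 0.634 to 2.44 and 2.44 to 6.99 counts per 1000000 reads counted in genes (CPM), respectively. Levels are given in CPM after TMM scaling. They count 3′ ends and are not divided by length, so they are compared between groups and never between genes. A gene is said to pass the test, to rise or to fall where the Benjamini-Hochberg adjusted p of edgeR's quasi-likelihood test over all genes is under 0.05. Slc1a3 was higher in control hindbrain GLASTpos libraries (5485 to 9085 CPM) than in GLASTneg libraries (1137 to 1771 CPM), as the sort implies. Library 2 of spinal cord E1 stood apart from the other 4 by control-like astrocyte markers, and library 1 of that group is titled spinal cord while other label fields give hindbrain. Its summed Hox genes, which mark the cord, were at 179 CPM. The other E1 cord libraries held 250, 58.9, 108 and 167 CPM, control cord 288 to 483 CPM and control hindbrain 0 to 2.55 CPM. For 12 of the 15 FVB/N libraries, the region or sort in the labels differs from another name of the same library, so that these groups are called by what they are labelled.

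VEGF family proteins bind receptor tyrosine kinases on endothelial cells. Vegfa is the main factor for vessel growth and permeability, and hypoxia induces it, while Vegfb is a family member with weaker effects on vessel growth. Angpt1 binds the endothelial receptor TIE2 and stabilises vessels. Edn1 is a strong constrictor peptide that is released from its precursor by endothelin converting enzymes and acts through Ednra, the main receptor of vascular smooth muscle, and Ednrb, a receptor that astrocytes carry. Agt is the precursor of the angiotensin peptides, and astrocytes are its main source in the brain.

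By GRCm38 coordinates, Vegfa (ENSMUSG00000023951) lies at chr17:46016993-46032369, Vegfb (ENSMUSG00000024962) at chr19:6982473-6987651, Angpt1 (ENSMUSG00000022309) at chr15:42424723-42676977 and Agt (ENSMUSG00000031980) at chr8:124556534-124569706, all on the minus strand. Edn1 (ENSMUSG00000021367) lies at chr13:42301476-42307990 on the plus strand, and Ednrb (ENSMUSG00000022122) at chr14:103814625-103844402 and Ednra (ENSMUSG00000031616) at chr8:77663031-77724464 on the minus strand. Annotated genes on the opposite strand overlap Angpt1 (Gm17473), Edn1 (Gm47118) and Ednra (4933431K23Rik). Whether reads were counted by strand is not given in the sources used here, so for these 3 genes reads of the overlapping gene cannot be told apart.

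The promoters of the 4 genes with the largest fitted falls in the E4 spinal cord are shown from 250 bases before to 50 after the annotated start, 5′ to 3′ on the gene's strand (RefSeq, GRCm38.p6), chosen for the size of those falls. Capitals mark ACGTG or GCGTG, cores of the hypoxia response element, and TTCNNNGAA, the core bound by STAT factors, each searched on both strands. The windows are chr17:46032328-46032627 for Vegfa, chr13:42301226-42301525 for Edn1, chr14:103843652-103843951 for Ednrb and chr8:124569657-124569956 for Agt.
Vegfa: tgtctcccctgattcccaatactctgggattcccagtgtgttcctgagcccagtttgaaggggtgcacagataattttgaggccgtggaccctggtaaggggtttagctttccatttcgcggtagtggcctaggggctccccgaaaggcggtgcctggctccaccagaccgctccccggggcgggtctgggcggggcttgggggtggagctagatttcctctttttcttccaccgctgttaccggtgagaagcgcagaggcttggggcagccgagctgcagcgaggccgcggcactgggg
Edn1: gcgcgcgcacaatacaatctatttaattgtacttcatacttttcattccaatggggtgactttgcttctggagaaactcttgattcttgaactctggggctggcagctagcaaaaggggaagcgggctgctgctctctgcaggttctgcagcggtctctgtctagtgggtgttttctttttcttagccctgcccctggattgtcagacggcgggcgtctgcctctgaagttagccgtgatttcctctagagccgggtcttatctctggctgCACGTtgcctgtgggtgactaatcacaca
Ednrb: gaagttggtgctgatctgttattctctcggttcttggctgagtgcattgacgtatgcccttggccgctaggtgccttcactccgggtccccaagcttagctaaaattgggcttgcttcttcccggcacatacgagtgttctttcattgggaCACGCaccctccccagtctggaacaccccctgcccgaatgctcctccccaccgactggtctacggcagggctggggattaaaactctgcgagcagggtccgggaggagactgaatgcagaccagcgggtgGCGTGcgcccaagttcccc
Agt: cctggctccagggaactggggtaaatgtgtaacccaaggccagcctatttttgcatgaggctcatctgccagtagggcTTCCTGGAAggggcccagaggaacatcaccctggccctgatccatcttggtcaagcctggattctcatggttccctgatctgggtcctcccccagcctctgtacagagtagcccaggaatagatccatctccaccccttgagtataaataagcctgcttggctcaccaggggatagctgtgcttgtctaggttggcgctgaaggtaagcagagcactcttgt
Vegfa held none of these letters in the window shown, while its other annotated window, at an internal start (chr17:46025114-46025413), held GCGTG at -218 and ACGTG at -211 on the minus strand. Edn1 held ACGTG at +22 on the minus strand, Ednrb held GCGTG at -99 and +32, and Agt held TTCNNNGAA at -172, counted from the start site. Of 32851 promoters of the same length, 19.6% held ACGTG, 32.4% held GCGTG and 8.30% held TTCNNNGAA. Vegfb held GCGTG at -237 and -81, Ednra held none of the 3, and Angpt1 had no entry.

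**Figure D1:**
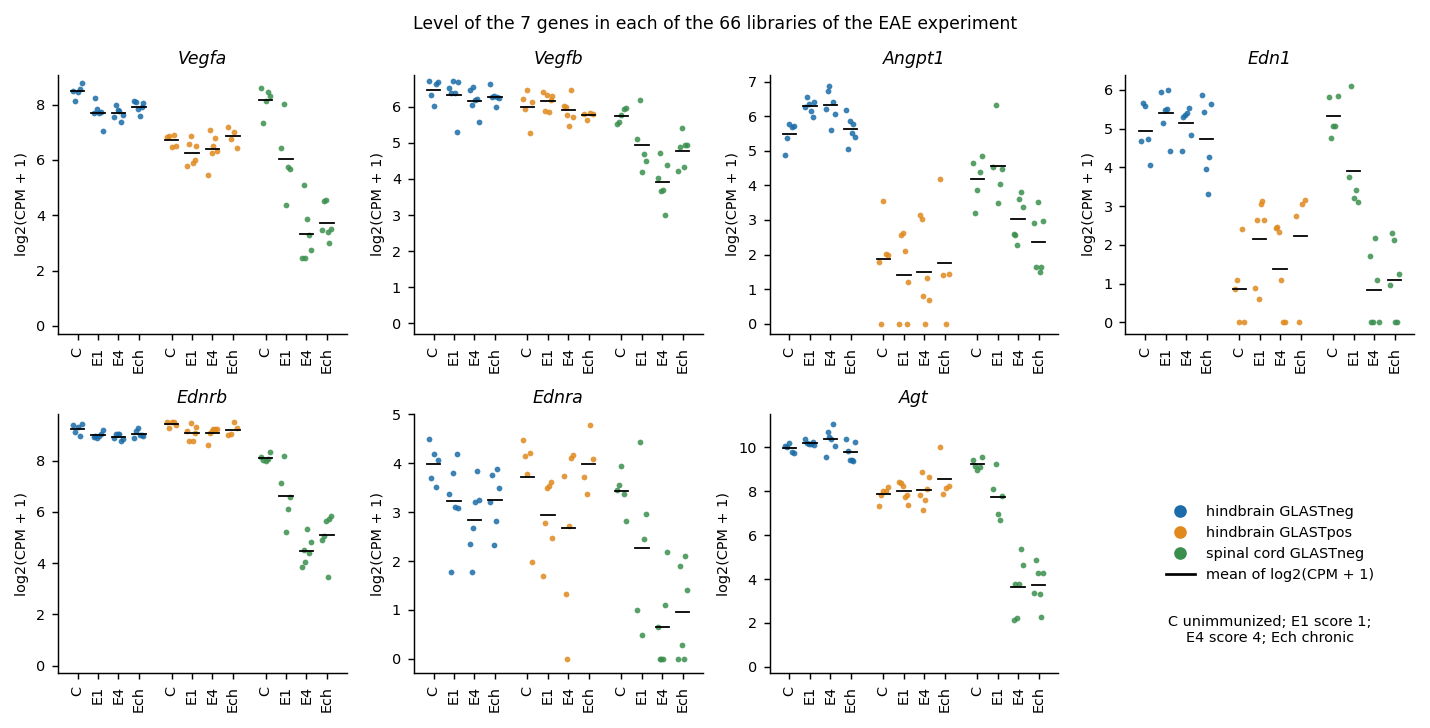
Levels of the 7 genes as log2(CPM + 1) on the y axis in each of the 66 EAE libraries, by stage on the x axis, with points for libraries, colours for hindbrain GLASTneg, hindbrain GLASTpos and spinal cord GLASTneg, and a bar for the mean of the log2 values. Spinal cord Vegfa went from 162 to 385 CPM in C to 4.41 to 32.8 CPM in E4, while the hindbrain groups of the same gene stayed within a range of 42.9 to 436 CPM.

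The largest differences of the EAE experiment lay in the spinal cord GLASTneg libraries. Against C, 3 of the 7 genes fell at E1, where 4.48% of all genes tested fell. At E4, 6 of the 7 fell, against 12.7% of all genes, and at Ech all 7 fell, against 11% of all genes. None rose at any stage, where 3.94%, 9.76% and 7.64% of all genes rose. Taken in either direction, the count at E1 was 1 in a fit of the cord libraries alone and 1 among libraries with a title number after S over 56. With scalings chosen after the data were seen, it was 1 relative to the summed astrocyte markers and 0 relative to Atp1b2. Over the 7 genes, the log2 fold change ran from -1.69 to 0.66 at E1, from -5.21 to -1.22 at E4 and from -5.37 to -0.95 at Ech.

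Vegfa stood at 385, 162, 276, 352 and 315 CPM in the 5 control cord libraries (298 ± 86.2, SD, n = 5). At E1 the 5 libraries held 85.1, 258, 19.8, 52.1 and 49.5 CPM (92.97 ± 95.3). At E4 the lowest, median and highest of the 6 libraries were 4.41, 7.21 and 32.8 CPM (11.6 ± 10.9), and at Ech 6.90, 10.3 and 22.2 CPM (13.5 ± 6.68). Every E4 and Ech library lay below every control, whereas at E1 library 2 lay inside the control range and the other 4 below it. The fall was 3.22-fold at E1 (log2 fold change -1.69, SE 0.36, adjusted p = 0.00088), 25.9-fold at E4 (-4.69, SE 0.39, adjusted p = 2.71e-16) and 21.9-fold at Ech (-4.45, SE 0.38, adjusted p = 1.11e-15). Without library 2 of E1, the log2 fold change at E1 was -2.53 (adjusted p = 1.62e-07).

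Vegfb moved less. Its control libraries held 45.1, 46.6, 53.6, 60.9 and 61.8 CPM, and those of E1 33.6, 71.6, 17.4, 24.7 and 21.6 CPM. The E4 libraries had a lowest, median and highest value of 7.05, 13.6 and 25.6 CPM, and the Ech libraries of 17.6, 29.0 and 41.9 CPM. The E4 and Ech ranges lay below the control range, and E1 straddled it through library 2. At E1 the change did not pass the test (-0.67, SE 0.27, adjusted p = 0.111), but it did without library 2 (-1.14, adjusted p = 0.00183). Vegfb fell 3.55-fold at E4 (-1.83, SE 0.27, adjusted p = 1.06e-07) and 1.93-fold at Ech (-0.95, SE 0.26, adjusted p = 0.00537). It was the only member to differ between Ech and E4 (0.88 higher on the log2 scale at Ech, SE 0.26, adjusted p = 0.0323), where 2.41% of all genes were higher and 2.03% lower, and that call was lost (adjusted p = 0.0564 to 0.140) without E4 library 1, 3, 4 or 5 or Ech library 2, 3, 5 or 6.

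Angpt1 passed the test at Ech and at no earlier stage. The control libraries held 24.3, 8.20, 13.5, 20.1 and 28.1 CPM (18.8 ± 8.04), and the E1 libraries 22.2, 79.8, 10.3, 15.4 and 21.1 CPM (29.7 ± 28.4). Apart from library 2, the E1 values lay within the control range. At E4 the 6 libraries ran from 3.89 through a median of 7.20 to 13.0 CPM, and at Ech from 1.82 through 4.36 to 10.6 CPM, and both ranges overlapped the controls. The change was 0.66 at E1 (SE 0.62, adjusted p = 0.557), which turned to -0.12 without library 2, and -1.22 at E4 (SE 0.61, adjusted p = 0.136). At Ech it fell 3.60-fold (-1.85, SE 0.62, adjusted p = 0.0256), a call that was lost without C library 1 or 5 or Ech library 2, 4 or 5 (adjusted p = 0.0556 to 0.0679).

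Among the endothelin genes, Edn1 came close to its floor. It stood at 55.5, 26.2, 32.7, 32.7 and 56.2 CPM in the controls (40.7 ± 14.1) and at 12.4, 66.997, 8.30, 9.59 and 7.59 CPM at E1. The lowest, median and highest values were 0, 0.569 and 3.50 CPM at E4, with counts of 4, 0, 0, 9, 5 and 0 in the 6 libraries, and 0, 1.16 and 3.97 CPM at Ech, with counts of 4, 13, 16, 0, 0 and 5. All 12 late libraries lay below the controls. The fitted falls were 35.7-fold at E4 (-5.16, SE 0.81, adjusted p = 5.13e-07) and 23.5-fold at Ech (-4.55, SE 0.76, adjusted p = 2.26e-06), and since these rest on few reads their size is less certain than their direction. At E1 the change was -0.97 (SE 0.68, adjusted p = 0.392), and -2.10 without library 2 (adjusted p = 0.0542).

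Ednrb, the endothelin receptor of astrocytes, had tight control values of 278, 258, 249.7, 267 and 321 CPM (275 ± 27.8). The E1 libraries held 139, 287, 35.9, 67.8 and 93.9 CPM, so that library 2 again lay among the controls and the other 4 below them. The E4 libraries ran from 13.5 through a median of 20.7 to 38.9 CPM (22.8 ± 9.28), and those of Ech from 9.99 through 41.1 to 55.9 CPM (38.2 ± 17.7). Neither range overlapped the controls. The falls were 2.21-fold at E1 (-1.14, SE 0.27, adjusted p = 0.0030), 12.03-fold at E4 (-3.59, SE 0.28, adjusted p = 2.05e-17) and 7.15-fold at Ech (-2.84, SE 0.27, adjusted p = 7.03e-14).

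Ednra, the receptor of vascular smooth muscle, stood at 9.91, 10.8, 14.3, 9.42 and 6.08 CPM in the controls (10.1 ± 2.96) and at 0.996, 20.5, 0.395, 4.45 and 6.75 CPM at E1. Its medians were 0.282 CPM at E4 and 0.928 CPM at Ech, with highest values of 3.55 and 3.30 CPM. The late ranges did not reach the control range. The change passed at E4 (-3.51, SE 0.82, adjusted p = 6.77e-04) and Ech (-2.91, SE 0.77, adjusted p = 0.00374), but not at E1 (-0.64, SE 0.75, adjusted p = 0.687). Ednra had 14 counts in all at E4, with 2 of 6 libraries over 3 counts, and 27 at Ech, with 3 of 6. The size of its late falls is thus less certain than their direction.

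Agt had the largest fitted fall of the 7 genes at both late stages, and at E4 Edn1 was within its SE of it. The control libraries held 694, 565, 497, 556 and 745 CPM (611 ± 104), and the E1 libraries 269, 596, 122.5, 103 and 219.6 CPM. The E4 libraries ran from 3.38 through a median of 12.7 to 40.3 CPM (16.1 ± 14.04), and the Ech libraries from 3.898 through 14.01 to 28.1 CPM (14.6 ± 8.80). At E1, 4 libraries lay below every control and library 2 among them, while at E4 and Ech all 12 lay more than 10 times below the lowest control. Agt fell 2.34-fold at E1 (-1.22, SE 0.39, adjusted p = 0.0366), 37.02-fold at E4 (-5.21, SE 0.43, adjusted p = 2.31e-16) and 41.5-fold at Ech (-5.37, SE 0.44, adjusted p = 8.88e-17). The E1 call was fragile: the adjusted p was 0.00123 without library 2 of E1, but 0.0504 to 0.139 when any of 8 other libraries (C 1, 2, 4 or 5, or E1 1, 3, 4 or 5) was left out.

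Between E1 and E4, all 7 genes fell (log2 fold change -4.19 to -1.15), against 4.56% of all genes (1.41% rose), and 4 of the 7 passed without library 2 of E1. With the number after S in the titles as a term, divided at 56, 3 passed. That number was over 56 in all 5 control, 4 of the 5 E1, 1 of the 6 E4 and 4 of the 6 Ech cord libraries. It was over 56 in 0 hindbrain GLASTneg libraries at each stage. Cord E4 against C, and the interaction with hindbrain GLASTneg at E4, thus differ in this number as well. Scaled to Atp1b2 or to the astrocyte list, 3 and 4 members passed between E1 and E4, counted in either direction, so these need not all be falls. The libraries of E4 and C did not overlap for 6 of the 7 genes, against 7.01% of all genes lower without overlap (5.35% higher), and those of Ech and C for 6 of the 7, against 6.65% of all genes (5.11% higher). At E1 none of the 7 was free of overlap, through library 2, against 2.32% of all genes lower and 1.96% higher.

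**Figure D2:**
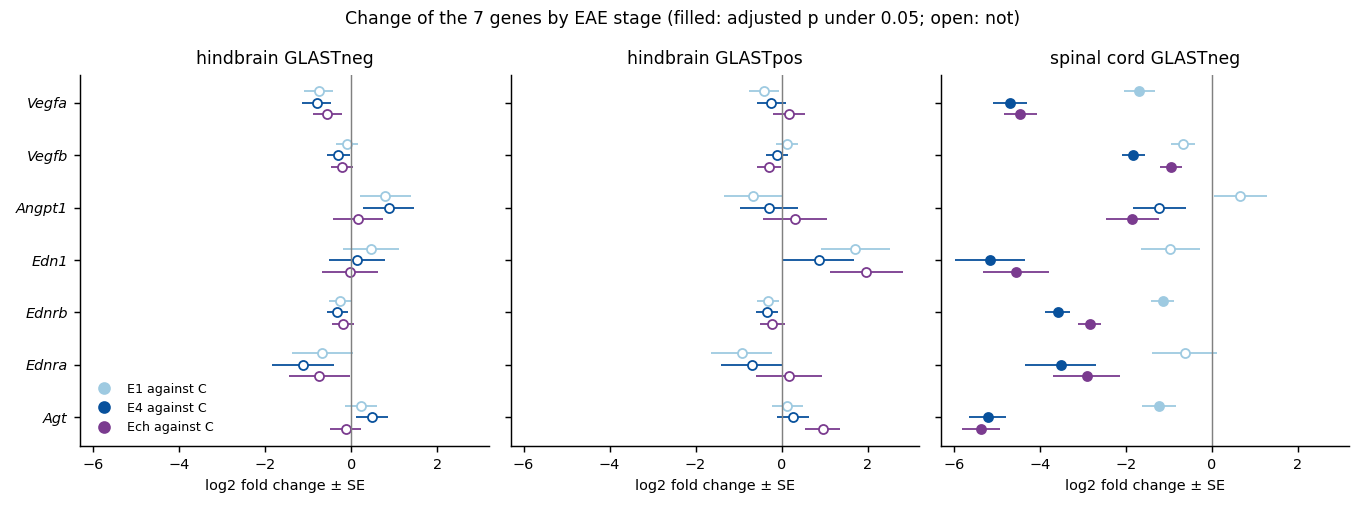
Log2 fold change against C with its SE on the x axis for each gene on the y axis, at E1, E4 and Ech, in hindbrain GLASTneg, hindbrain GLASTpos and spinal cord GLASTneg. Filled points passed the test and open points did not. All filled points lie in the spinal cord panel, where Agt reached -5.21 at E4 and -5.37 at Ech.

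Markers of the sorted cells changed with these genes. Atp1b2, which encodes the sorted surface protein, went from 5175 to 7706 CPM in control cord to 103 to 599 CPM at E4 and 228 to 609 CPM at Ech. At E1, it ran from 1332 to 9215 CPM, with library 2 at the top. The summed astrocyte marker list went from 15334 to 22837 CPM in C to 2820 to 4322 CPM at E4 and 3703 to 6501 CPM at Ech, whereas the summed oligodendrocyte list went from 13915 to 40163 CPM to 28581 to 72647 CPM at E4 and 24797 to 39918 CPM at Ech. Myeloid markers summed to 11.8 to 40.7 CPM in C and 130 to 5022 CPM at E4, with library 2 of E4 highest, and endothelial markers stayed at 0 to 11.3 CPM in C, 5.64 to 13.5 CPM at E4 and 9.31 to 19.03 CPM at Ech, with Cdh5 at 0 in all 3 groups. The 8 mural cell markers, from cells that also express Angpt1 and Ednra, summed to 14.1 to 43.96 CPM in C, 2.25 to 5.71 CPM at E4 and 3.36 to 27.7 CPM at Ech, so that Ech overlapped C. Other marker sums also differed from C: neuronal markers went from 160 to 291 CPM in C to 474 to 707 CPM at E4, T cell markers from 0 to 11.4 CPM to 12.3 to 69.2 CPM at E4, oligodendrocyte precursor markers from 197 to 602 CPM to 551 to 1984 CPM at Ech, and fibroblast and meningeal markers from 129 to 207 CPM to 178 to 396 CPM at Ech. At E4, 6 of the 7 members passed whichever library was left out, library 2 included. In these bulk libraries, fewer astrocytes and less RNA of a gene per astrocyte cannot be told apart, and the part of the other cells' RNA in the falls was not tested beyond the values that follow.

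Relative to Atp1b2 reads, the members separated from each other. Per 1000 Atp1b2 reads, Agt stood at 80.7 to 107 reads in the 5 control libraries, 57.8 to 95.8 at E1, 17.97 to 78.1 at E4 and 9.89 to 46.2 at Ech, so that both late ranges stayed below the controls. Angpt1 went the other way, from 1.17 to 3.75 reads in C to 7.71 to 9.08 at E1 and 18.2 to 49.2 at E4. At Ech it ran from 3.51 to 24.2 and overlapped the controls. At E1 all 5 libraries of Angpt1 lay above all controls on this scale, library 2 included. The share of all genes that separate from the controls on this scale is not given here, and the scaling moved the median gene up, as stated below. Vegfb ran from 6.65 to 10.4 reads in C, 13.7 to 148 at E4 and 31.4 to 95.8 at Ech, and Ednrb from 36.9 to 48.3 in C, 38.4 to 131 at E4 and 43.8 to 133 at Ech. Vegfa ran from 23.2 to 59.5 reads in C, 14.8 to 30.3 at E1, 11.2 to 158 at E4 and 17.5 to 50.8 at Ech, and its late ranges overlapped the controls. The 158 at E4 was library 2, which also held the highest myeloid marker sum. The Vegfa medians were 53.1 reads in C, 22.3 at E4 and 28.1 at Ech.

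The same fit scaled to Atp1b2, a choice made after the data were seen, gave a log2 fold change for Agt of -1.10 at E4 (adjusted p = 0.00486) and -1.54 at Ech (adjusted p = 8.96e-05), for Vegfa of -0.08 at E4 (adjusted p = 0.960) and -0.59 at Ech (adjusted p = 0.177), and for Edn1 of -0.88 at E4 (adjusted p = 0.420). On that scale Vegfb was higher at E4 (2.94, adjusted p = 9.14e-10) and Ech (2.98, adjusted p = 4.82e-10), as were Angpt1 (3.11, adjusted p = 2.28e-04, and 1.98, adjusted p = 0.0130) and Ednrb (0.85, adjusted p = 0.00705, and 1.01, adjusted p = 0.00136). Scaling to Atp1b2 moved the median log2 fold change of all genes by 1.09, 4.31 and 3.69 at E1, E4 and Ech, so Vegfb, Angpt1 and Ednrb rose there by less than the median gene. Scaled to the summed astrocyte list, which moved the median gene by 0.74, 2.11 and 1.69, Agt was lower at E4 (-2.77, adjusted p = 1.81e-09) and Ech (-3.51, adjusted p = 1.15e-11), as were Vegfa (-2.20, adjusted p = 6.00e-08, and -2.57, adjusted p = 1.68e-09), Edn1 (-2.82, adjusted p = 0.0020, and -2.74, adjusted p = 0.00165) and Ednrb (-1.18, adjusted p = 2.99e-06, and -1.003, adjusted p = 5.83e-05). Agt was thus lower than in C at E4 and Ech on all 3 scales. Vegfa, Edn1 and Ednrb fell with TMM scaling and with the astrocyte list but not with Atp1b2. For Vegfa at E4, the Atp1b2 value includes library 2, and that scaling without library 2 was not tested.

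**Figure D3:**
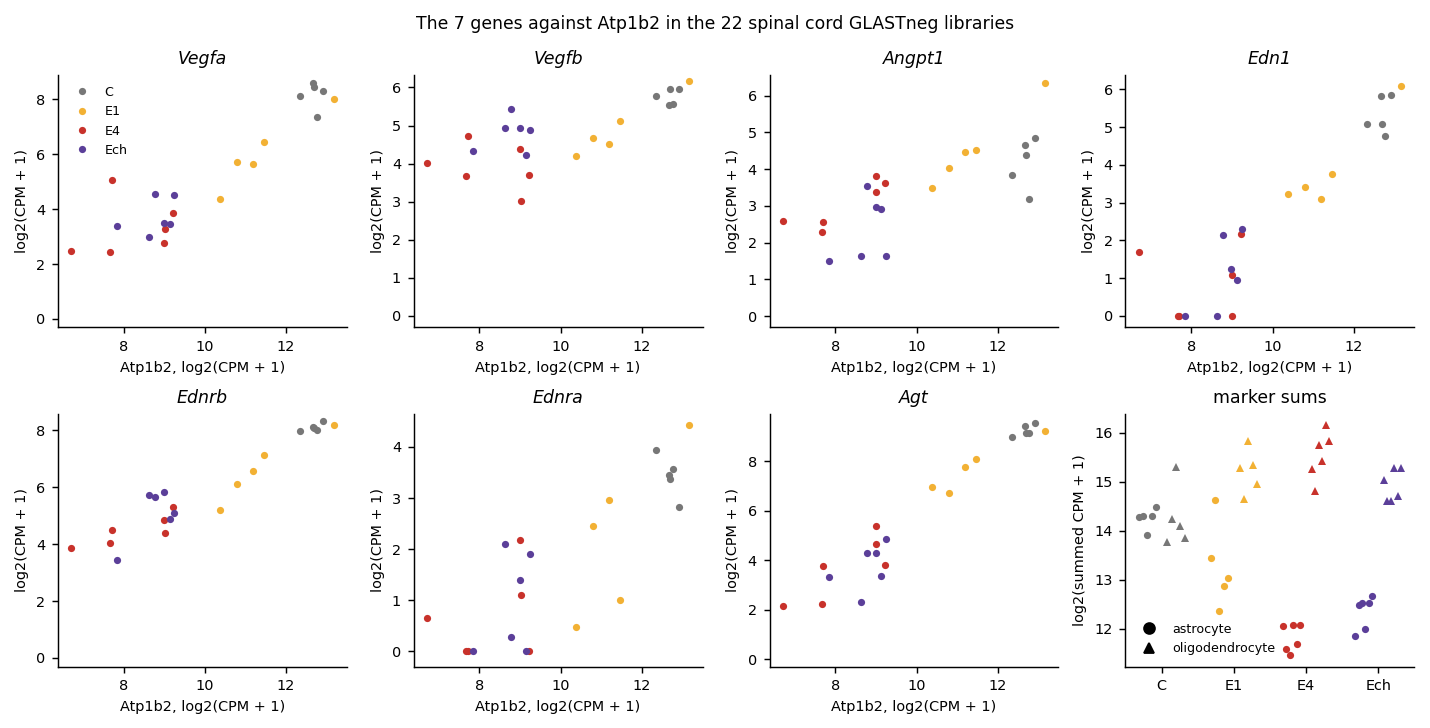
Level of each gene (y axis, log2(CPM + 1)) against the level of Atp1b2 (x axis, log2(CPM + 1)) in the 22 spinal cord GLASTneg libraries, coloured by stage. The last panel shows the summed astrocyte and oligodendrocyte markers by stage. The E1 library at the far right is library 2, whose Atp1b2 level of 9215 CPM exceeded that of all controls.

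The hindbrain libraries showed no such fall. In hindbrain GLASTneg astrocytes, 0 of the 7 genes passed edgeR's test at E1, E4 or Ech, where 0.0171%, 0.03% and 0.00429% of all genes fell and 0.66%, 0.725% and 0.193% rose. At an unadjusted p under 0.05, 1, 1 and 0 members differed, and DESeq2 called 0 at each stage. Their astrocyte markers summed to 20990 to 32801 CPM over all stages.

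In these libraries, Vegfa stood at 357, 281, 352, 376 and 436 CPM in the controls (360 ± 55.4). Its lowest, median and highest values were 130, 209 and 304 CPM at E1, 166, 207 and 252 CPM at E4 and 190.5, 253 and 278 CPM at Ech. The E4 and Ech libraries all lay below the controls, which 0.609% and 0.446% of all genes did, and E1 overlapped by 1 library. The log2 fold changes of -0.75 (SE 0.34, adjusted p = 0.489), -0.80 (SE 0.34, adjusted p = 0.523) and -0.56 (SE 0.34, adjusted p = 0.731) did not pass. Fitted on the hindbrain GLASTneg libraries alone, with a spread estimated from them only, Vegfa passed at E1 (-0.74, adjusted p = 0.00457) and E4 (-0.79, adjusted p = 0.0019).

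The hindbrain GLASTneg controls of Angpt1 held 28.5, 40.0, 53.3, 50.9 and 51.7 CPM (44.9 ± 10.6). The E1 libraries ran from 61.4 through a median of 79.1 to 93.6 CPM, above all controls, which was so for 1 of the 7 genes and 1.46% of all genes. The E4 libraries ran from 47.7 through 78.1 to 115 CPM and those of Ech from 32.04 through 49.4 to 71.2 CPM, both overlapping the controls. The changes of 0.80 at E1 (SE 0.58, adjusted p = 0.761) and 0.87 at E4 (SE 0.58, adjusted p = 0.753) did not pass, and in the fit on these libraries alone they did (0.80, adjusted p = 0.0256, and 0.88, adjusted p = 0.0120).

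Agt and Ednrb were not shown to differ in hindbrain GLASTneg libraries. Agt stood at 1067, 1042, 1157, 872 and 862 CPM in C (1000 ± 129) and spread to 758, 1379 and 2155 CPM as lowest, median and highest at E4 (log2 fold change 0.49, SE 0.37, adjusted p = 0.811). Ednrb stood at 669.7, 554, 634, 501 and 681 CPM in C (608 ± 77.7), and its E4 libraries ran from 428 through 494 to 529 CPM (-0.32, SE 0.26, adjusted p = 0.847). Both ranges overlapped their controls. Vegfb, Edn1 and Ednra overlapped as well, and over the 7 genes the changes ran from -0.75 to 0.80 at E1, from -1.13 to 0.87 at E4 and from -0.75 to 0.16 at Ech.

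In hindbrain GLASTpos astrocytes, 0 of the 7 genes passed edgeR's test at E1, E4 or Ech, where 0.262%, 0.424% and 0.189% of all genes fell and 1.32%, 1.75% and 1.24% rose. At an unadjusted p under 0.05, 1, 0 and 2 members differed, and DESeq2 called 0 at each stage. Ednrb ran from 385 through a median of 577 to 605 CPM at E4 and lay below its controls of 723, 609, 718, 725 and 676 CPM without overlap, as 0.493% of all genes did, with a change of -0.33 (SE 0.26, adjusted p = 0.585). Agt at Ech was 1039, 232, 285.5 and 297 CPM, against 159.8, 225, 253, 254 and 295.5 CPM in C. Its change of 0.96 (SE 0.41, adjusted p = 0.206) rested on library 1 and was 0.19 without it. That library also held the highest Angpt1 of its group, at 17.2 CPM against 0 to 1.72 CPM in the other 3. Edn1 at Ech was 5.74, 0, 7.33 and 7.85 CPM against 0.817, 1.14, 0, 4.32 and 0 CPM in C (1.97, SE 0.85, adjusted p = 0.210), which is within a few reads of the floor.

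Whether the cord and the hindbrain GLASTneg cells responded differently was tested as an interaction. At E1, 0 of the 7 genes passed edgeR's test, with 2 at an unadjusted p under 0.05, 0 by DESeq2, and 0.146% of all genes passing as lower and 0.0686% as higher in the cord. Vegfa (-0.93, adjusted p = 0.431), Agt (-1.45, adjusted p = 0.215) and Ednrb (-0.88, adjusted p = 0.289) all passed without library 2 of spinal cord E1, at -1.81 (adjusted p = 0.0139), -2.04 (adjusted p = 0.0236) and -1.48 (adjusted p = 0.0066). At E4, 5 of the 7 fell further in the cord, against 6.2% of all genes (2.36% higher): Agt by a log2 difference of -5.70 (adjusted p = 2.02e-12), Edn1 of -5.29 (adjusted p = 1.37e-04), Vegfa of -3.89 (adjusted p = 1.04e-08), Ednrb of -3.27 (adjusted p = 2.62e-10) and Vegfb of -1.53 (adjusted p = 0.00304). At Ech, 4 of the 7 did, against 5.47% of all genes (1.74% higher), namely Agt (-5.24, adjusted p = 2.46e-11), Edn1 (-4.52, adjusted p = 8.65e-04), Vegfa (-3.896, adjusted p = 8.70e-09) and Ednrb (-2.64, adjusted p = 1.05e-07). Atp1b2 fell in the same cord libraries, and its part in these differences was not tested beyond the scaling. Under Atp1b2 scaling, the differences of Vegfa (0.99), Vegfb (3.49) and Ednrb (1.40) at E4 changed sign. That scaling also moved the median gene of the cord up, as stated above, and the median gene of the interaction under it is not given here. No member differed in its response between hindbrain GLASTpos and GLASTneg at any of the 3 stages by edgeR or DESeq2, with 0, 0 and 1 at an unadjusted p under 0.05, while 0.00857%, 0% and 0.0557% of all genes passed as higher and 0%, 0.00857% and 0.00429% as lower.

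Without disease, the genes divided the GLAST subtypes. In control hindbrain, 4 of the 7 were lower in GLASTpos than in GLASTneg libraries, against 8.21% of all genes (5.33% higher), and the same 4 did so without overlap, against 7.39% of all genes. Vegfa held 112, 114, 86.5, 117 and 90.1 CPM in GLASTpos, against 281 to 436 CPM in GLASTneg (-1.79, SE 0.36, adjusted p = 1.79e-04). Agt held 159.8 to 295.5 CPM against 862 to 1157 CPM (-2.07, SE 0.40, adjusted p = 8.03e-05). Both signals were thus present in GLASTpos cells at a lower level. Angpt1 held 2.45, 0, 10.8, 3.05 and 2.95 CPM, from counts of 6, 0, 33, 12 and 12, against 28.5 to 53.3 CPM (-3.52, SE 0.69, adjusted p = 1.07e-04). Edn1 held 0.817, 1.14, 0, 4.32 and 0 CPM, from counts of 2, 3, 0, 17 and 0, against 15.7 to 49.2 CPM (-4.58, SE 0.84, adjusted p = 3.13e-05). These 2 ligands were near or at the floor in most GLASTpos libraries.

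Ednrb did not share this difference. It stood at 723, 609, 718, 725 and 676 CPM in GLASTpos (690.2 ± 49.7) against 608 ± 77.7 CPM in GLASTneg (0.18, adjusted p = 0.750), with a 95% interval of the log2 difference from -0.34 to 0.71. Vegfb was also not shown to differ (-0.45, SE 0.27, adjusted p = 0.253).

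Between the regions, control cord GLASTneg libraries held less Ednrb than hindbrain GLASTneg libraries (249.7 to 321 against 501 to 681 CPM, -1.15, SE 0.27, adjusted p = 0.0029). Ednrb was the only 1 of the 7 genes to pass, against 2.25% of all genes lower and 3.09% higher. Agt (-0.71, adjusted p = 0.301), Vegfb (-0.74, adjusted p = 0.109) and Angpt1 (-1.26, adjusted p = 0.251) were also lower without overlap but did not pass. The share of all genes without overlap in this comparison is not given here. Other cells' markers differed between the same libraries: the oligodendrocyte list summed to 13915 to 40163 CPM in cord and 1393 to 4871 CPM in hindbrain, and the astrocyte list to 15334 to 22837 against 23951 to 30605 CPM. Their part in the Ednrb difference was not tested. The number after S in the titles ran from 32 to 51 in control hindbrain GLASTneg, 68 to 95 in hindbrain GLASTpos and 60 to 83 in cord libraries, so in these controls a division at 56 cannot be told apart from the sort or the region.

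Ordered by mean level over the 12 EAE groups, most neighbouring groups overlapped. Vegfa descended from 360 CPM in control hindbrain GLASTneg to 11.6 CPM in E4 cord, with breaks between hindbrain GLASTneg E4 and hindbrain GLASTpos Ech and between hindbrain GLASTpos E1 and cord Ech. The order of Agt was broken only between control hindbrain GLASTpos (237 ± 50.1 CPM) and E4 cord (16.1 ± 14.04 CPM), and that of Ednrb only between hindbrain GLASTneg E4 and control cord. Vegfb, Angpt1, Edn1 and Ednra had no break between neighbours.

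The FVB/N libraries were compared first as labelled. Between libraries labelled hindbrain GLASTpos and GLASTneg, Agt was the 1 gene of 7 to pass, against 2.16% of all genes lower and 2.13% higher. It stood at 537, 331.5 and 584 CPM against 1370, 2189 and 1858 CPM (-1.90, SE 0.24, adjusted p = 2.53e-09). Vegfa stood at 528, 615 and 502 CPM against 366, 349 and 485 CPM, higher without overlap but without passing (0.46, adjusted p = 0.420). By these labels, Agt had the same direction as in the C57BL/6J controls and Vegfa had not, but the markers given below go against the labels.

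Between libraries labelled spinal cord GLASTneg and hindbrain GLASTneg, 3 of 7 genes were lower, against 4.15% of all genes, and 1 was higher, against 3.32% of all genes. Vegfa stood at 112, 129.5 and 164 CPM in those labelled spinal cord (-1.56, SE 0.26, adjusted p = 2.20e-06). Agt stood there at 369.8, 729 and 1083 CPM (-1.31, SE 0.24, adjusted p = 2.57e-05). Both ranges lay below those of the libraries labelled hindbrain GLASTneg. Edn1 had 0 counts in all 3 libraries labelled spinal cord, which at 3 counts per library allows up to 2.90 to 3.61 CPM. Its mean in those labelled hindbrain GLASTneg was 11.1 CPM, 3.46 times the mean of these floors. That mean rests on counts of 4, 12 and 5, with a lowest library of 4.09 CPM, so the size of the difference is uncertain. The adjusted p of Edn1, 0.0189, became 0.0571 to 0.0661 without library 2 of labelled hindbrain GLASTneg or library 1 or 2 of labelled spinal cord. Ednrb was higher, at 1044, 1100 and 1379 CPM against a mean of 643 CPM (0.87, SE 0.22, adjusted p = 0.00338). By the labels this was opposite in sign to the C57BL/6J controls, and with the other names given below it was not.

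Among the forebrain labels, only Agt passed. It stood at 707, 758 and 977 CPM in libraries labelled forebrain GLASTneg, lower than labelled hindbrain GLASTneg (-1.15, SE 0.24, adjusted p = 5.80e-04, 1 of 7 genes against 1.26% of all genes lower and 1.52% higher). It stood at 1654, 1624 and 1386 CPM in those labelled forebrain GLASTpos, higher than labelled forebrain GLASTneg (0.93, SE 0.24, adjusted p = 0.0154, 1 of 7 genes against 0.709% of all genes higher and 0.608% lower). That last call was lost without library 1 or 2 of either group (adjusted p = 0.0784 to 0.146).

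The markers went against the region labels. The summed Hox genes stood at 410.4 to 493.2 CPM in the 3 libraries labelled hindbrain GLASTneg and at 0 in the 3 labelled spinal cord, while the C57BL/6J control cord held 288 to 483 CPM. Slc1a3 was highest in the libraries labelled spinal cord GLASTneg, at 9422 to 11009 CPM, and low in those labelled hindbrain GLASTneg, at 573 to 988 CPM. The study itself uses other names elsewhere for these libraries. It names those labelled hindbrain GLASTneg as spinal cord GLASTneg, and those labelled spinal cord GLASTneg as hindbrain GLASTpos. Those labelled forebrain GLASTpos are hindbrain GLASTneg there, and those labelled hindbrain GLASTpos are forebrain GLASTpos. With the study's names, Vegfa was lower in hindbrain GLASTpos than in GLASTneg (-1.53, adjusted p = 5.82e-06) and 3 of the 7 genes passed. Vegfa then had the direction of the C57BL/6J controls. Under those names, 0 of the 7 passed between spinal cord and hindbrain GLASTneg, with Vegfa at 0.02, Agt at 0.22 and Ednrb at -0.64. There Ednrb had the sign of the C57BL/6J controls and Agt had not. Agt was -0.75 between forebrain GLASTpos and GLASTneg without passing. Each FVB/N difference in the paragraphs above is between libraries as labelled and is not shown for the regions or sorts named. For the groups labelled hindbrain GLASTneg and spinal cord GLASTneg, the Hox and Slc1a3 values go with the study's other names.

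**Figure D4:**
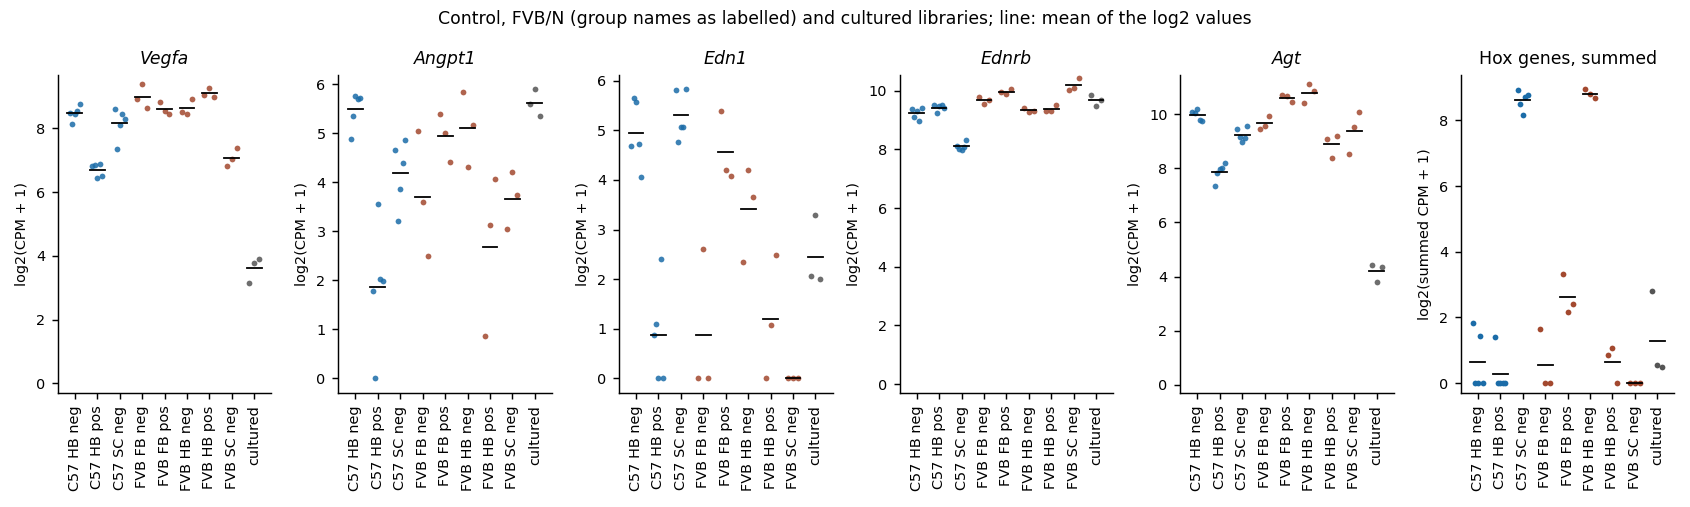
Levels of 5 members as log2(CPM + 1), and of the summed Hox genes as log2(summed CPM + 1), on the y axis in the C57BL/6J control (C57), FVB/N (FVB, as labelled) and cultured libraries, with HB, SC and FB for hindbrain, spinal cord and forebrain and neg and pos for the GLAST sort. Points are libraries and bars are means of the log2 values. The summed Hox genes are at 410.4 to 493.2 CPM in the FVB/N group labelled hindbrain GLASTneg and at 0 in that labelled spinal cord GLASTneg.

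Cultured neonatal astrocytes do not depend on those labels, because they were set against the mean of all 5 FVB/N groups. Vegfa stood at 7.96, 12.6 and 14.01 CPM in culture, against 112 to 665 CPM in the isolated libraries (-4.96, SE 0.29, adjusted p = 2.20e-18). Agt stood at 20.7, 12.8 and 19.2 CPM, against 331.5 to 2189 CPM (-5.81, SE 0.32, adjusted p = 3.13e-19). Both passed the test, 2 of 7 genes against 9.79% of all genes lower. The cultured and isolated ranges did not overlap for either. Angpt1 was higher, at 47.3, 58.8 and 39.8 CPM against 0.812 to 56.3 CPM in the isolated libraries, so that the ranges overlapped (1.42, SE 0.44, adjusted p = 0.00937). This was 1 of 7 genes, a smaller share than the 26.3% of all genes that were higher, and Angpt1 did not pass without cultured library 2 (1.23, adjusted p = 0.0756). Ednrb stood at 924, 715 and 817 CPM and was not shown to differ (-0.06, SE 0.16, adjusted p = 0.839, 95% interval -0.37 to 0.26). Astrocyte markers summed to 5313 to 5810 CPM in culture and 24370 to 36467 CPM in isolated libraries. Mouse strain, age, brain part and culture differ together and cannot be told apart.

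Partner genes of the 3 pathways were read from lists of ligands, receptors, endothelin enzymes, angiotensin enzymes and receptors, and hypoxia genes. In the spinal cord at E1, 1 of 3 endothelin genes and 2 of 15 hypoxia genes fell, and none of 6 ligands, 6 receptors or 8 angiotensin genes, against 4.48% of all genes (3.94% higher). Ece1, the enzyme that releases endothelin, fell at E1 (-1.23, adjusted p = 0.0045), E4 (-2.15, adjusted p = 1.53e-08) and Ech (-1.73), from 130 to 176 CPM in C to 16.6 to 58.7 CPM at E4, without overlap. At E4, 2 ligands, 1 receptor, 1 endothelin gene, 1 angiotensin gene and 6 hypoxia genes fell, and 1 angiotensin gene and 1 hypoxia gene rose, against 12.7% of all genes lower and 9.76% higher, so that the shares of the 8 angiotensin genes and the 6 receptors were near those of all genes. Of these, the ligand Vegfd and the peptidase Anpep, named after their values were seen, averaged under 5 CPM in every EAE group. Nrp1, a co-receptor of VEGF, fell by 3.31 on the log2 scale at E4 (adjusted p = 1.08e-07) and by 3.15 at Ech. Enpep, which cleaves angiotensin II, went from 11.2 to 19.8 CPM in C to 0 to 1.14 CPM at E4 and 0 to 1.22 CPM at Ech, near the floor, with fitted changes of -5.91 and -5.61.

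Of the hypoxia list, the glucose transporter Slc2a1 fell at E4 (-2.22) and Ech (-2.51), as did the transcription factors Hif1a (-1.11 and -1.64), Epas1 (-1.22 and -0.72) and Arnt (-1.39 and -1.23). Pdk1 and Ldha, both enzymes of glucose metabolism, fell at E1 (-1.67 and -1.21) and E4 (-2.02 and -1.13), and Adm, a vasodilator peptide, at Ech (-2.08). Hk2, a hexokinase, was higher at E4 (2.39), where the 6 libraries ran from 2.66 to 146 CPM with a median of 8.82 CPM, so that this mean rested on 1 library. Among the ligands, Angptl4 fell at E4 (-2.86) and Ech (-1.80) and the placental growth factor Pgf at Ech (-3.42). In hindbrain GLASTneg libraries, no gene of any of these lists passed edgeR's test at E1, E4 or Ech. In hindbrain GLASTpos libraries, the VEGF co-receptor Nrp2 fell at E4 (-3.10), and Ece1 (1.22) and Hif1a (1.17) rose at Ech.

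Between the control hindbrain sorts, partners differed in both directions. In GLASTpos libraries, 3 ligands, 1 receptor, 1 endothelin gene, 2 angiotensin genes and 4 hypoxia genes were lower than in GLASTneg libraries, against 8.21% of all genes, and 1 ligand, 1 endothelin gene and 3 hypoxia genes were higher, against 5.33% of all genes. Ece1 (-3.16), Nrp1 (-3.38), Enpep (-4.62), Angptl4 (-2.17), Pgf (-2.49), Slc2a1 (-2.23), Hif1a (-2.07) and Adm (-5.19) were among the lower ones. Hk2 (3.66) and Ldha (1.17) were higher, as were the lymphatic growth factor Vegfc (3.72), the converting enzyme Ece2 (1.54) and Vhl (1.08), which targets HIF proteins for degradation, the last 3 named after their values were seen. Ece1 stood at 25.3 to 39.0 CPM against 231 to 301 CPM, and Hk2 at 188 to 267 CPM against 13.5 to 29.0 CPM, both without overlap.

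**Figure D5:**
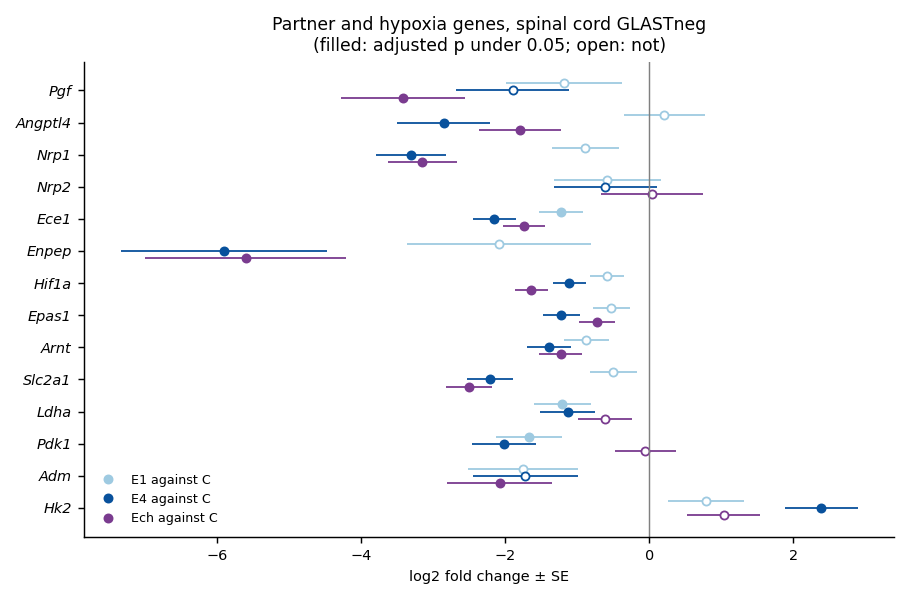
Log2 fold change with its SE on the x axis for 14 partner and hypoxia genes in spinal cord GLASTneg libraries at E1, E4 and Ech against C. Filled points passed the test, open points did not. Ece1 is filled at all 3 stages and Hk2 lies to the right of 0, at 2.39 at E4.

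The genes most like each member were found as those with the highest Pearson r of log2(CPM + 1) over the 12 EAE group means, among 10972 genes that averaged 5 CPM or more. The groups share libraries of the same cords and hindbrains and the level of astrocyte markers, so these values are a description. The 3 genes for Vegfa were Sema4a (r = 0.99), Tmem44 and Gm37694, those for Vegfb Slitrk2 (0.98), Lrp1 and Npr2, and those for Angpt1 Rapgef3 (0.97), Scd1 and Xrn1. For Edn1 they were Plscr2 (0.99), Pfkp and Fstl1, for Ednrb Sparcl1 (0.99), Plpp3 and Acss1, for Ednra Fam160a2 (0.96), Ints10 and Rai1, and for Agt Acsl6 (0.99), Bhlhe40 and Fgfr3. Among the members, r was highest for Vegfa and Agt (0.97), Ednrb and Vegfb (0.95) and Ednrb and Ednra (0.92). It was 0.88 for Angpt1 and Edn1, and lowest for Angpt1 and Ednrb (0.12). Ednrb followed both Atp1b2 (0.96) and the astrocyte glutamate transporter Slc1a2 (0.96), as did Agt (0.94 and 0.96). Vegfa (0.92 and 0.92), Vegfb (0.93 and 0.93) and Ednra (0.90 and 0.90) did so as well. The values were lower for Edn1 (0.57 and 0.58) and Angpt1 (0.28 and 0.34).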

How the data were processed

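RNA of sorted or cultured astrocytes was converted to QuantSeq 3′ libraries by the authors. They aligned reads with HISAT 0.1.5, used SAMtools, counted reads per gene with HTSeq 0.6.1p1 (strand setting not given in the sources used here), and deposited raw counts as a table of 48526 gene identifiers for EAE and of 25773 for the subtypes. All values are whole numbers, no value was normalized, and no column was without a sample. Identifiers were named with GRCm38 symbols (48058 and 25608 matched).

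Genes whose counts summed to 10 or more were fitted in edgeR 4.0.16 (R 4.3.3) with TMM scaling and quasi-likelihood tests, over 66 EAE libraries (23324 genes), 15 FVB/N libraries (14957 genes) and, for cultures, 18 libraries (17126 genes). P-values were adjusted by Benjamini-Hochberg over all genes. SE is the absolute log2 fold change divided by the square root of F. The scripts were tested on simulated data. Alternatives were DESeq2 1.42.0 and others named in the closing section. Fits that leave out 1 library keep the trended dispersions of the full fit. Other tools were Python 3.11.15, numpy 2.4.6, pandas 2.3.3 and matplotlib 3.10.9.

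The members, gene lists and tests were chosen with earlier results of these data known. All 7 members were named whatever they did, and partner genes that averaged 5 CPM or more in any EAE group and passed at any stage against C. Floors are 3 counts and cover counting error only.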

Additional observations from a re-analysis of the deposited data

Results flagged for a closer look

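In 11 of the 84 sets of libraries tested (7 genes in each of 12 groups), the highest or lowest library lay far from the rest of its group by Dixon's criterion at the 95% level. For normal and independent values, chance alone would give such a set in about 5% of groups. These sets share libraries and some hold libraries without reads, so the 11 of 84 cannot be set against that share. In the spinal cord, library 2 of E1 was high in Vegfa (258 CPM), Angpt1 (79.8 CPM) and Edn1 (66.997 CPM), and it also held the highest Atp1b2 of all cord libraries (9215 CPM). Library 2 of E4 was high in Vegfa (32.8 CPM) and held the highest myeloid marker sum (5022 CPM). Library 6 of E4 was high in Ednra (3.55 CPM). In hindbrain GLASTpos cells, library 1 of Ech was high in Agt (1039 CPM) and Angpt1 (17.2 CPM), library 3 of C in Angpt1 (10.8 CPM), library 4 of C in Edn1 (4.32 CPM), and library 1 of E4 was low in Ednrb (385 CPM). In hindbrain GLASTneg cells, library 5 of E1 was low in Vegfb (38.6 CPM).

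The response differed between spinal cord and hindbrain GLASTneg cells, by the interaction in edgeR, for 5 genes at E4 and 4 at Ech. At E4 the log2 differences were -5.70 for Agt, -5.29 for Edn1, -3.89 for Vegfa, -3.27 for Ednrb and -1.53 for Vegfb. At Ech they were -5.24 for Agt, -4.52 for Edn1, -3.90 for Vegfa and -2.64 for Ednrb. The level of Atp1b2 fell in the same cord libraries, and its part in these differences was not tested beyond the scalings given in the next section.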

How the results depend on the processing

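Limits came from the level of astrocyte markers in the cord libraries, which falls with the genes, from few reads of Edn1, Ednra and Angpt1 in several groups, and from the FVB/N names. Over the 12 settings, 522 values of single genes held their direction and side of the threshold, 36 lost and 8 gained a call, and 28 turned sign. Of 845 values with 1 library left out, 811 held, 29 lost and 4 gained a call, and 1 turned. The scalings to Atp1b2 and to the astrocyte list were chosen after the data were seen. The cause of each change was not tested.

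In the cord, scaling to Atp1b2 turned Vegfb to 0.44, 2.94 and 2.98 and Ednra to 0.056, 0.47 and 0.81 at E1, E4 and Ech, and Angpt1 to 3.11 and 1.98 and Ednrb to 0.85 and 1.01 at E4 and Ech. Scaling to the astrocyte list turned Vegfb to 0.12, 0.61 and 0.91 at E1, E4 and Ech, and Angpt1 to 1.20 and 0.061 at E4 and Ech. The median gene moved up under both scalings by the values in the report. The interaction turned under Atp1b2 for Ednrb at E1 (0.20), E4 (1.40) and Ech (1.10) and for Vegfb (3.49) and Vegfa (0.99) at E4, and under the astrocyte list for Vegfb at E4 (1.03). Ednrb between the control hindbrain sorts turned to -0.15 with the astrocyte list and to -0.34 with a term for the number after S in the library titles, divided at 56, whose meaning is not stated. With the other names of the FVB/N libraries, hindbrain GLASTpos against GLASTneg gave -1.53 for Vegfa and 3 passing genes, spinal cord against hindbrain GLASTneg gave 0.023 for Vegfa, 0.22 for Agt, -0.64 for Ednrb and 0 passing genes, and forebrain GLASTpos against GLASTneg gave -0.75 for Agt and 0 passing genes.

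The counts of passing members take both directions. That of cord E1 (3) became 1 in a fit of the cord libraries alone, 0 with Atp1b2, 1 with the astrocyte list and 1 among libraries numbered over 56. Cord Ech (7, all lower) became 4 with Atp1b2, of which Agt was lower and Vegfb, Angpt1 and Ednrb were higher. Hindbrain GLASTneg E1 and E4 (0) became 2 each in the fit of that population alone, and hindbrain GLASTpos Ech (0) became 1 with either scaling. Cord E4 against E1 (7) became 3 with Atp1b2, 4 with the astrocyte list, 3 with the number as a term and 4 over 56, where 1 E4 library remained. Cord Ech against E4 (1) became 2 with DESeq2 and 0 with the cord alone, with either scaling, with the number as a term and over 56. The interaction at E4 (5) became 3 with the number as a term, and forebrain GLASTpos against GLASTneg (1) became 0 with DESeq2 and with edgeR's own expression filter. Median-ratio size factors and no filter changed no count by more than 1.5 times.

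With 1 library left out, the counts ranged from 2 to 4 for cord E1, 6 to 6 for E4, 6 to 7 for Ech, 4 to 7 for E4 against E1, 0 to 2 for Ech against E4, 0 to 3 for the interaction at E1 and 0 to 1 for forebrain GLASTpos against GLASTneg. Angpt1 at cord E1 ranged from -0.12 to 0.90.

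The replicate number of the labels does not follow the number in the titles that recurs within a stage. Libraries with the same replicate number did not deviate together (mean r of -0.0012 in EAE, against 0.0003 for other numbers). With a replicate block, 6 in place of 7 members passed for cord E4 against E1, and no other count of members changed (3 at cord E1, 6 at E4 and 7 at Ech). Pairs that share the title number within a stage had a mean r of 0.02 (3 of 49 over 0.1), against -0.0030 for 314 other pairs, so no pairing was established. With that number as a replicate block, chosen after the data were seen, the control comparisons between sorts and regions had 4 and 1 passing members, and the interactions between cord and hindbrain GLASTneg at E4 and Ech had 6 and 5. The interaction at E1 went from 0 to 1 (Agt, -1.47, adjusted p = 0.0016), and that between hindbrain GLASTpos and GLASTneg at Ech from 0 to 1 (Edn1). Stages against C could not be fitted with this block, since no number is shared between stages.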
